A study of Mus musculus with 36 samples.

Results

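Non-collagen matrix glycoproteins, proteoglycans and collagen crosslinking enzymes were followed in epididymal white adipose tissue (WAT) of mice, a fat pad of the male gonad. The set was a list of 39 genes, each represented by the probe with the highest mean intensity among the non-control array probes that carried the gene's symbol or an older synonym. A probe was found for 38 of the 39 genes. None carried the symbol Hspg2 (perlecan), and both probes of Fbln5 were too dim to pass the filter on low signal, so 37 members were measured among 16497 genes. By role they formed 5 lists: fibronectin and the elastic fibre (12 of 13 measured), matricellular proteins (8 of 8), basement membrane (6 of 7), proteoglycans (7 of 7) and lysyl oxidases (4 of 4).

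The tissue came from 36 adult male C57BL/6J mice, with 12 in each of 3 groups. A purified high-fat diet (30 energy percent fat) was given to all mice without restriction for 3 weeks, and the t=0 group was killed at that point. The HF-AL group went on eating the diet ad libitum for 12 weeks. The HF-DR group was restricted to 70 energy percent of it over those 12 weeks, with vitamins and minerals added so that their intake matched. All 3 groups thus ate high-fat food, and HF-AL and t=0 are called the ad libitum groups below. Each Agilent array compared the Cy5-labelled RNA of 1 mouse with a common Cy3-labelled reference, an equimolar mix of the samples. A value below is the log2 ratio of 1 animal to that reference pool, and a difference is a difference between group means of these ratios, given with its standard error (SE) and n = 12 arrays a group unless stated. A gene is called higher or lower where limma's adjusted p, over all 16497 genes, was under 0.05.

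The extracellular matrix of fat is a mesh around each adipocyte. Fibrillin microfibrils carry elastin and bind latent TGF-beta, and fibronectin fibrils hold cells through integrins. A basement membrane of laminins, nidogens and perlecan wraps each fat cell and vessel. Small leucine-rich proteoglycans coat collagen fibrils and set their width, matricellular proteins act on cells more than they bear load, and lysyl oxidases crosslink collagen and elastin. Matrix is known to be deposited and remodelled as fat cells grow.

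Some arrays and tissues stood apart. The share of probes well above background ran from 45.2% on HF-DR 5 to 86.6% on t=0 2. Transcripts of the seminal vesicle were high on HF-DR 8, where 4 measured markers averaged 5.87, against a group median of -5.27. The list also held epididymal markers, but none of those was measured. HF-DR 7, HF-DR 8, HF-DR 9, HF-AL 5, HF-AL 7 and HF-AL 9, the 6 arrays set aside for such transcripts, were left out as an alternative. By the mean of the 4 markers the HF-AL arrays were not high: the top one was HF-AL 1 (-4.45). Array t=0 6, at -2.85, lay above it and was kept. All 15 mature adipocyte markers were well above background on all 36 arrays. Of the 21 slides, 9 held a single array of the study, and only 3 held both an HF-DR and an HF-AL array. Each array is a separate mouse, per the labels.

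Promoters of the members that moved most in each role, where the reference table held them, are shown with that of Mfap2, the 1 measured member that was not called lower under restriction. RefSeq windows were matched for 24 of the 39 genes. The 250 bases before the start of each gene (GRCm38.p6, first entry where a gene had several) are printed 5′ to 3′ on the gene's strand, for Fbn1 at chr2:125506439-125506688 (minus), Tnxb at chr17:34670285-34670534 (plus), Nid1 at chr13:13437352-13437601 (plus), Prelp at chr1:133921402-133921651 (minus) and Mfap2 at chr4:141010431-141010680 (plus). Capitals mark matches on either strand to 4 short motifs: GGGCGG (Sp1), CATTCC (TEAD), TGANTCA (AP-1) and CAGAC (the SMAD element). No match overlapped another in these windows.
Fbn1: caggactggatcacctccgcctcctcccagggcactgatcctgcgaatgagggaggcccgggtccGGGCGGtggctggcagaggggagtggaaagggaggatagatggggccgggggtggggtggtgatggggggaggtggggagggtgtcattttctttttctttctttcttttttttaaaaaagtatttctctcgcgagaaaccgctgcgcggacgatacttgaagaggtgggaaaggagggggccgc
Tnxb: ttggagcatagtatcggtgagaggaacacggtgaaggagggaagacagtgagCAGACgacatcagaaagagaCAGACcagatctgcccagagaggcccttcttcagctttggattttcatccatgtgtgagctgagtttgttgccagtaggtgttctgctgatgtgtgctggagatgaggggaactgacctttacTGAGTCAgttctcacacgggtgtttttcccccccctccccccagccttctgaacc
Nid1: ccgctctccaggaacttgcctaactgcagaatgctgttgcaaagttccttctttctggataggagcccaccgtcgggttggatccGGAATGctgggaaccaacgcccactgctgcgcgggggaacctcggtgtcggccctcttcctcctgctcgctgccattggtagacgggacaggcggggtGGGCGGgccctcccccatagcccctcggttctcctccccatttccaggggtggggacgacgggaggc
Prelp: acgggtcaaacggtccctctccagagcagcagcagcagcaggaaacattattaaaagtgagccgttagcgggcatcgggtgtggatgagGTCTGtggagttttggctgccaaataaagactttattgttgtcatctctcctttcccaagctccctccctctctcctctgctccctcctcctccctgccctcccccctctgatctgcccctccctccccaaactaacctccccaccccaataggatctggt
Mfap2: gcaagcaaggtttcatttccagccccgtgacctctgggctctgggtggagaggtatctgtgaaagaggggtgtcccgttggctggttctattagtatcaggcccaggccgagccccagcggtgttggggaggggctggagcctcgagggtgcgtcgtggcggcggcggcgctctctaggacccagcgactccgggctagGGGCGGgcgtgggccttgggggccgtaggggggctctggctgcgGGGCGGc
The GGGCGG motif was in 13 of the 24 member windows (54.2%) and in 32.9% of all 27025 windows of that length. CAGAC was in 12 (50%, against 42.1% of all windows), CATTCC in 2 (8.33%, against 12.6%) and TGANTCA in 2 (8.33%, against 6.87%). Fbn1 and Mfap2 both held GGGCGG and no other of these motifs, while Prelp held a single CAGAC. A match describes letters only.

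Nearly the whole set was lower under restriction. Between HF-DR and HF-AL, 36 of the 37 measured members were called lower and 0 higher, on a background of 35.9% of all genes called lower and 28.8% called higher. No member was higher at an unadjusted p under 0.05 in limma either. The count includes Tnc, which passed the filter on dim probes only through the ad libitum groups and is no support for it; 35 of the other 36 were called. The median difference over the 37 members was -0.81, beside -0.04 over all genes tested. At least 2-fold lower were 13 members, against 2.6% of all genes. The 12 HF-DR values lay wholly below the 12 HF-AL values for 18 members, as they did for 8.18% of all genes. Each animal's median over the members ran from -0.05 to 0.31 in t=0, from -0.09 to 0.24 in HF-AL and from -1.37 to -0.51 in HF-DR, so no HF-DR animal reached the other groups. The lowest were HF-DR 8 (-1.37) and HF-DR 9 (-1.28), and the other 10 lay between -0.77 and -0.51. In bulk tissue, fewer cells of a type and less RNA per cell cannot be told apart.

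**Figure D1:**
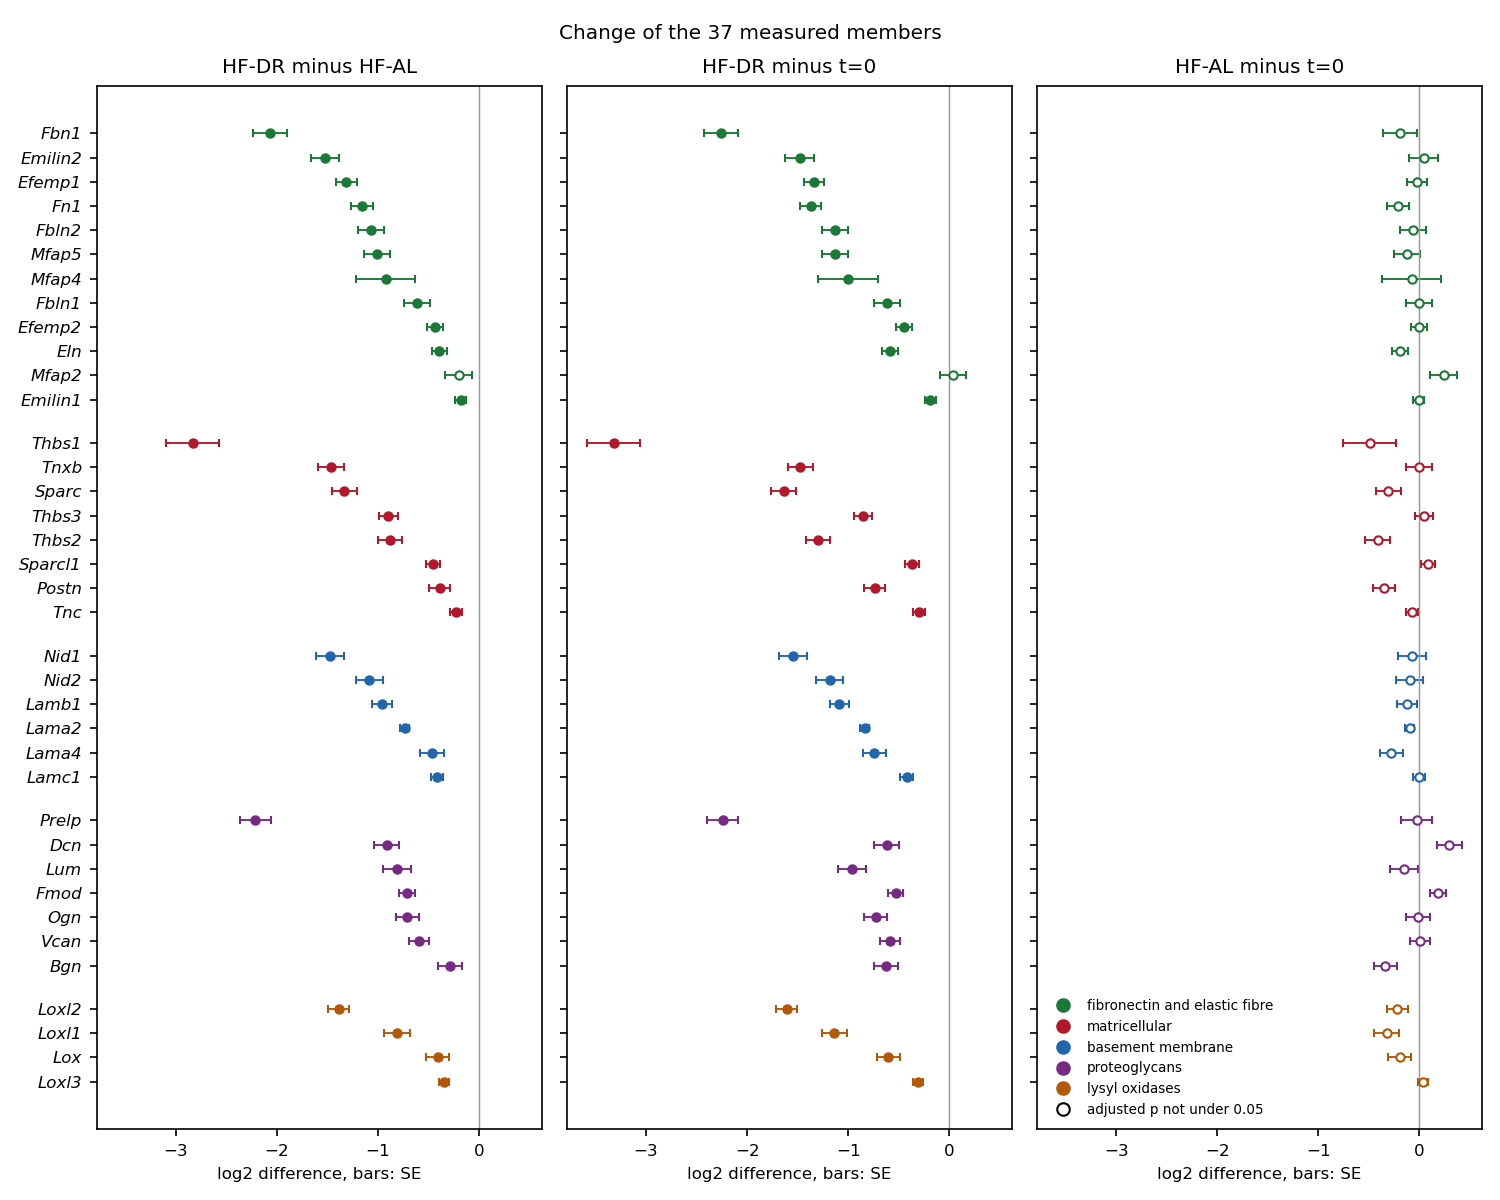
Differences of group means (log2, x axis; bars, SE; n = 12 arrays a group, fewer for 4 members with spots left out as outliers) for the 37 measured members by role, in 3 comparisons; filled points have an adjusted p under 0.05. Against each other group, 36 HF-DR points are filled and left of 0, and that of Mfap2 is open, while the points for HF-AL against t=0 are all open.

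Slide and group were partly confounded. With slide as a block 33 members were called lower (28.6% of all genes), and Postn (-0.41, adjusted p = 0.0561 in limma), Lama4 (-0.28, adjusted p = 0.110) and Lox (-0.22, adjusted p = 0.155) were no longer called. Within the 3 slides that held both groups, 34 of the 37 members were below 0 on each slide, and Mfap2, Emilin1 and Lama4 were not. Each of these slides held 1 array of either group, so a value within a slide compares 1 mouse with 1 mouse. The share of all genes below 0 on each of the 3 slides was not counted, so the 34 members have no background here. Tnc, with the filter limit given above, is in the counts of 33 and 34 and is no support for them. The 9 slides with a single array, among them those of HF-DR 7 to HF-DR 12, add nothing to the difference with slide as a block. Without the 6 arrays set aside for male tract transcripts, 35 members were called lower. Bgn was then not called (-0.29, adjusted p = 0.0638), and Mfap2 was at 0.10 (adjusted p = 0.352).

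Among the fibronectin and elastic fibre genes, 11 of 12 were lower in HF-DR than in HF-AL (median -0.97). Fbn1 encodes fibrillin-1, the backbone of microfibrils. Its log2 ratio ran from 0.14 to 1.50 in t=0 (median 0.78), from 0.22 to 1.15 in HF-AL (median 0.44) and from -2.55 to -0.76 in HF-DR (median -1.54). Every HF-DR animal was below every animal of the other groups. The difference between HF-DR and HF-AL was -2.07 ± 0.17 (SE), 4.20-fold lower, with an adjusted p of 3.73e-13 in limma. Within the shared slides it ran from -2.81 to -1.99. The probe lay at chr2:124992432-124992491 (mm8, minus strand), and the exons that the member probes hit were not looked up, as no mm8 annotation was used here.

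Emilin2 encodes an elastin microfibril interface protein. Its values were between -0.29 and 0.78 in t=0 (median 0.10), between -0.15 and 0.73 in HF-AL (median 0.23) and between -2.22 and -0.91 in HF-DR (median -1.15). HF-DR again did not overlap the others, and HF-DR 9 was the lowest animal. The difference from HF-AL was -1.52 ± 0.14, or 2.87-fold (adjusted p = 7.43e-12), from the probe at chr17:71157155-71157214 (mm8, minus strand).

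Other members of this list moved less. Fibronectin itself, Fn1, the fibril-forming ligand of integrins, was 2.24-fold lower (-1.16 ± 0.11). The fibulin relative Efemp1 was 2.49-fold lower (-1.31 ± 0.10), and Fbln2, a fibulin found with fibronectin and fibrillin fibres, was 2.09-fold lower (-1.07 ± 0.13). Mfap5, which sits on fibrillin microfibrils, was 2.01-fold lower (-1.01 ± 0.13). Smaller falls were seen in Fbln1 (-0.62 ± 0.13), in Efemp2, a fibulin needed to assemble elastic fibres (-0.44 ± 0.08), in elastin, Eln (-0.39 ± 0.08), and in Emilin1 (-0.18 ± 0.05, adjusted p = 0.0042). Eln was well above background on 11 of 12 HF-DR arrays and Emilin1 on 10, so part of their HF-DR values lie near the lower end of what the arrays measured. Over 14 alternatives of the processing Eln ran from -0.64 to -0.29 and Emilin1 from -0.33 to -0.14. The lowest value of both came from the scanner software's processed signals.

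Mfap2, like Mfap5 a microfibril-associated glycoprotein, did not pass the test. Its ratio ran from -0.47 to 0.38 in t=0, from -0.36 to 0.66 in HF-AL and from -1.09 to 0.18 in HF-DR, and the medians were -0.29, -0.19 and -0.11. The groups overlapped throughout, with HF-DR 8 and HF-DR 9 (-0.70) the only HF-DR animals below -0.31. The difference between HF-DR and HF-AL was -0.20 ± 0.13 (adjusted p = 0.181 in limma), and its dimmer second probe gave 0.09, which passed as higher among the passing probes (adjusted p = 0.0296, and 0.0334 for 0.09 against t=0).

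Mfap4, a microfibril-bound protein, had the widest spread of all members in HF-AL and HF-DR (SD 0.95 and 0.66). In HF-AL the top animals were HF-AL 9 at 1.77, then HF-AL 7 at 1.64. In HF-DR they were HF-DR 9 at 0.76, then HF-DR 8 at 0.03. These 4 arrays are among the 6 set aside for male tract transcripts, though the HF-AL ones were not high by the mean of the measured markers. The part of such transcripts in the value was not tested. Mfap4 fell by 0.92 ± 0.29 (adjusted p = 0.0061), by 0.80 without the 6 arrays and by 1.37 with slide as a block.

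**Figure D2:**
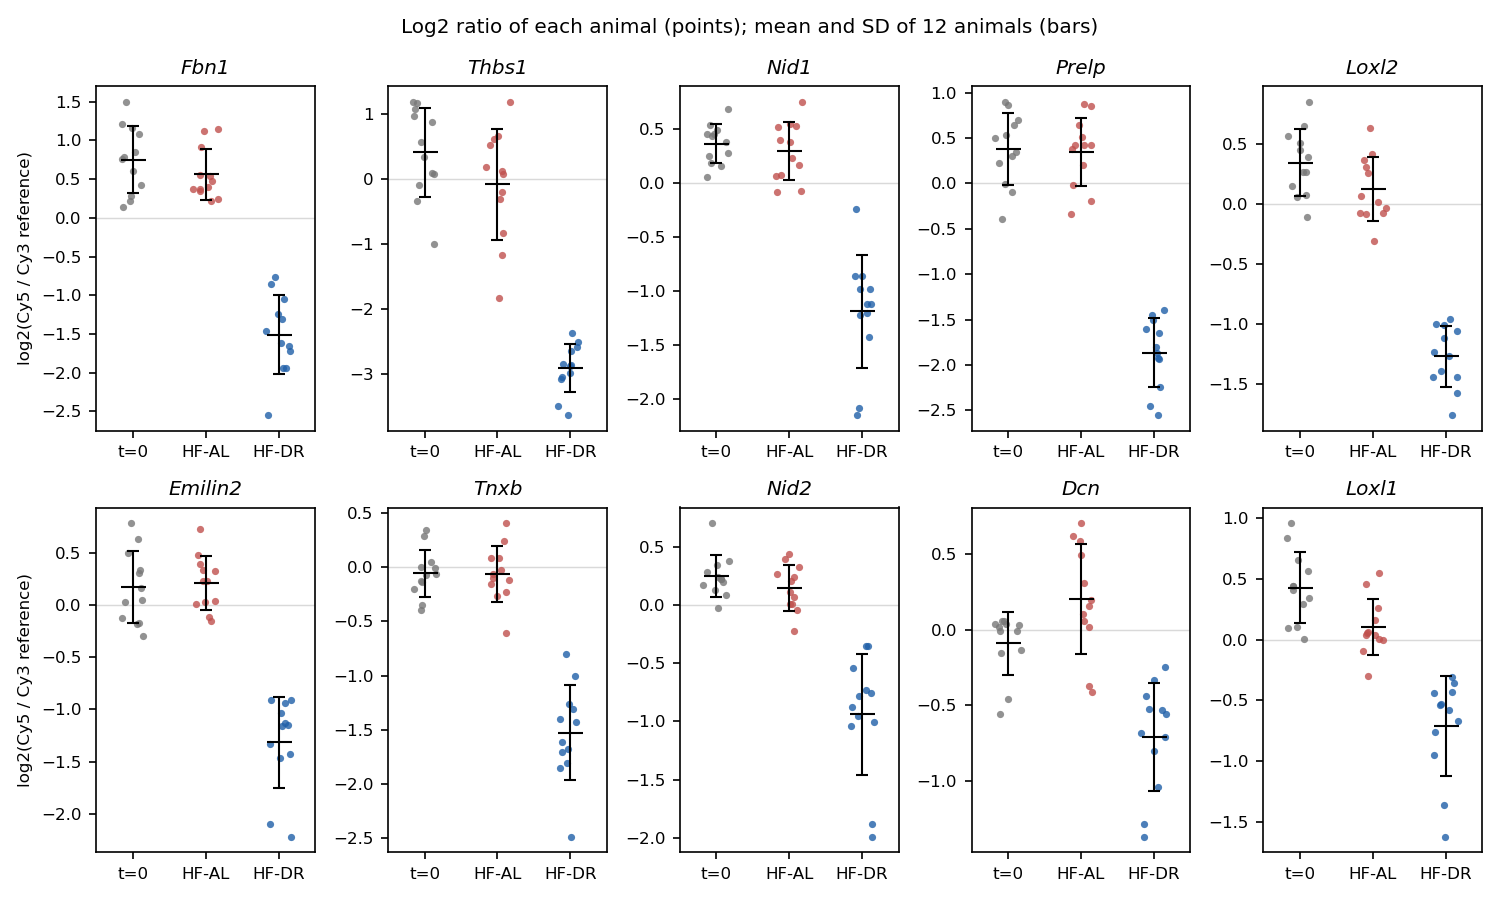
Log2 ratio of each animal to the pool (y axis; own scale in each panel) for the 10 members with the largest differences in their lists, in t=0, HF-AL and HF-DR; bars are mean and SD of 12 animals. HF-DR lies below both other groups without overlap in 9 panels, and overlaps them for Dcn.

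All 8 matricellular members were lower in HF-DR than in HF-AL (median -0.89). Thbs1 encodes thrombospondin-1, which activates latent TGF-beta and restrains vessel growth. It ran from -1.01 to 1.18 in t=0 (median 0.46), from -1.83 to 1.19 in HF-AL (median 0.10) and from -3.64 to -2.37 in HF-DR (median -2.87). The ad libitum groups were spread widely, with SDs of 0.69 and 0.86, while the HF-DR animals were grouped at an SD of 0.37 and did not overlap them. The difference was -2.83 ± 0.26, 7.12-fold lower (adjusted p = 9.37e-12), which placed Thbs1 at rank 9 from the lowest among 16497 genes. Within the shared slides it ran from -3.64 to -1.20. The probe lay at chr2:117817480-117817539 (mm8, plus strand).

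Tnxb encodes tenascin-X, a tenascin of loose connective tissue that binds collagen fibrils. Its values were between -0.39 and 0.34 in t=0 (median -0.07), between -0.61 and 0.41 in HF-AL (median -0.08) and between -2.49 and -0.80 in HF-DR (median -1.52). The ad libitum groups covered similar ranges and every HF-DR animal was below them. The difference from HF-AL was -1.47 ± 0.13, 2.76-fold lower (adjusted p = 1.57e-12), from the probe at chr17:34327011-34327151 (mm8, plus strand).

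Sparc, the collagen-binding osteonectin, was 2.52-fold lower (-1.33 ± 0.12), and its relative Sparcl1 was 1.37-fold lower (-0.46 ± 0.07, with 11 arrays each in HF-AL and HF-DR after outlier spots were left out). Thbs2 and Thbs3, both thrombospondins, fell by 0.88 ± 0.12 and 0.90 ± 0.09. Postn, periostin, which binds collagen, fell by 0.39 ± 0.11 and was not called with slide as a block. Tnc, tenascin-C, a tenascin of wounds and development, was at -0.23 ± 0.06 (adjusted p = 0.00139). Its signal was well above background on all 12 arrays of each ad libitum group and on 8 of the 12 HF-DR arrays, so it was tested only because it is high in those groups. Over 14 alternatives of the processing Tnc ran from -0.74 (the scanner software's processed signals) to -0.13.

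All 6 measured basement membrane genes were lower (median -0.85). Nid1 encodes nidogen-1, which links the laminin and collagen IV networks. It ran from 0.06 to 0.68 in t=0 (median 0.41), from -0.09 to 0.75 in HF-AL (median 0.31) and from -2.15 to -0.24 in HF-DR (median -1.12). HF-DR 8 was the lowest animal and HF-DR 6 the highest of a group that lay wholly below the others. The difference was -1.48 ± 0.14, 2.78-fold lower (adjusted p = 1.52e-11), and -1.38 without the 6 arrays set aside for male tract transcripts. The probe lay at chr13:13304276-13304335 (mm8, plus strand).

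Nid2, the second nidogen, ran from -0.02 to 0.70 in t=0 (median 0.22), from -0.22 to 0.44 in HF-AL (median 0.16) and from -1.99 to -0.35 in HF-DR (median -0.83). It too did not overlap between HF-DR and the others, and HF-DR 8 was again the lowest. The difference from HF-AL was -1.09 ± 0.13, 2.12-fold lower (adjusted p = 6.24e-09), from the probe at chr14:18601964-18602023 (mm8, plus strand).

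The laminin chains fell by different amounts. Lamb1, the beta-1 chain, fell by 0.96 ± 0.10, with 11 HF-AL arrays, and Lama2, the alpha-2 chain best known in muscle and nerve, by 0.74 ± 0.04. Lama2 varied least between animals of a group of all members (SD 0.09 in t=0, 0.11 in HF-AL and 0.11 in HF-DR) and had the smallest adjusted p, 1.95e-16. Lama4, an alpha chain of vessels and fat cells, fell by 0.46 ± 0.12 with 11 HF-AL arrays, and Lamc1, the gamma-1 chain shared by most laminins, by 0.42 ± 0.06 with 10 HF-DR arrays.

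All 7 proteoglycans were lower (median -0.71), and 1 of them far more than the rest. Prelp encodes a leucine-rich proteoglycan that anchors basement membrane to collagen. Its ratio was between -0.39 and 0.90 in t=0 (median 0.42), between -0.34 and 0.87 in HF-AL (median 0.42) and between -2.55 and -1.40 in HF-DR (median -1.84). The ad libitum groups had the same median, and the highest HF-DR animal lay below their lowest animal. The difference was -2.21 ± 0.15, 4.64-fold lower (adjusted p = 3.78e-15), from the probe at chr1:135726768-135726827 (mm8, minus strand). Within the shared slides it ran from -2.32 to -1.26.

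Dcn encodes decorin, which binds collagen fibrils and TGF-beta. It ran from -0.55 to 0.06 in t=0 (median 0.00), from -0.41 to 0.70 in HF-AL (median 0.17) and from -1.37 to -0.25 in HF-DR (median -0.62). The highest HF-DR values overlapped the lowest of the ad libitum groups, and HF-DR 8 was the lowest animal. The difference from HF-AL was -0.91 ± 0.12, 1.88-fold lower (adjusted p = 6.53e-08), from the probe at chr10:96947287-96947346 (mm8, plus strand).

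Lum, lumican, fell by 0.81 ± 0.14, and Fmod, fibromodulin, by 0.71 ± 0.08, both proteoglycans that limit fibril width. Ogn, osteoglycin, fell by 0.71 ± 0.12 and Vcan, versican, the large hyaluronan-binding proteoglycan, by 0.60 ± 0.10, with Vcan well above background on 10 of 12 HF-DR arrays. Over 14 alternatives of the processing Vcan ran from -1.07 (the scanner software's processed signals) to -0.41. Bgn, biglycan, the closest relative of decorin, fell least, by 0.29 ± 0.12 (adjusted p = 0.0304). Its call was lost when arrays were scaled to equal spread (-0.19, adjusted p = 0.204).

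All 4 lysyl oxidases were lower (median -0.61). Loxl2, which also oxidises collagen IV of basement membranes, ran from -0.11 to 0.85 in t=0 (median 0.33), from -0.31 to 0.63 in HF-AL (median 0.04) and from -1.76 to -0.95 in HF-DR (median -1.25). No HF-DR animal overlapped the ad libitum groups. The difference from HF-AL was -1.39 ± 0.11, 2.62-fold lower (adjusted p = 6.48e-14), and it ran from -1.64 to -1.31 within the shared slides. The probe lay at chr14:68430527-68430586 (mm8, plus strand).

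Loxl1, needed to renew elastin, ran from 0.00 to 0.96 in t=0 (median 0.42), from -0.30 to 0.55 in HF-AL (median 0.05) and from -1.62 to -0.31 in HF-DR (median -0.56). The highest HF-DR animal, HF-DR 11, was just below the lowest HF-AL animal, HF-AL 8. The difference was -0.81 ± 0.13, 1.76-fold lower (adjusted p = 6.61e-07), from the probe at chr9:58088900-58088959 (mm8, minus strand). Lox itself fell by 0.41 ± 0.11 and Loxl3 by 0.35 ± 0.05, with Loxl3 well above background on 10 of 12 HF-DR arrays. The size for Loxl3 depends on the processing. Over 14 alternatives it ran from -0.79 (the scanner software's processed signals) to -0.28.

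Members of 1 family did not fall alike. Because both genes are read on the same array, the difference of their log2 ratios was taken in each animal and compared between HF-DR and HF-AL. The 25 pairs were chosen after the values were seen, and p-values come from two-sided permutation tests (100000 resamples; the smallest possible p is 2e-05) with Benjamini-Hochberg adjustment over the pairs. In 20 pairs the fall was unequal at an adjusted p under 0.05, and for 18 of the 20 it had the same sign within each of the 3 shared slides. Both counts include Tnc against Tnxb. Since Tnc passed the filter only through the ad libitum groups, that pair is no support for them.

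Thbs1 fell by 1.95 ± 0.24 (SE) more than Thbs2 and by 1.93 ± 0.25 more than Thbs3 (adjusted permutation p = 5e-05 for both). For Thbs2 against Thbs3 the difference was 0.01 ± 0.12 (adjusted p = 0.91). Prelp fell by more than Lum (1.40 ± 0.15) and Fmod (1.50 ± 0.19), both at an adjusted p of 5e-05, whereas Lum and Fmod differed by -0.10 ± 0.16 (adjusted p = 0.58). These gaps depend on the probe: with all passing probes of a gene averaged, Thbs1 fell by 0.83 more than Thbs2 (adjusted p = 0.00025) and by 0.82 more than Thbs3 (adjusted p = 0.0005), and Prelp by 0.49 more than Lum (adjusted p = 0.01) and by 0.59 more than Fmod (adjusted p = 0.0005).

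Tnxb fell by 1.24 ± 0.14 more than Tnc, Emilin2 by 1.34 ± 0.17 more than Emilin1, and Sparc by 0.76 ± 0.11 more than Sparcl1 (11 arrays a group), each at an adjusted p of 5e-05. Mfap5 fell by 0.81 ± 0.16 more than Mfap2 (adjusted p = 0.00025). Of the 2 nidogens, Nid1 fell by 0.39 ± 0.09 more (adjusted p = 0.00053). In the authors' normalised Cy5 values Nid1 and Nid2 differed by -0.16 (adjusted p = 0.17), and with median centring by -0.21 (adjusted p = 0.062). Tnxb fell by 0.71 more than Tnc with passing probes averaged. In the scanner software's processed signals Tnxb fell by 0.80 more than Tnc, and Emilin2 by 1.20 more than Emilin1. Tnc and Emilin1 are the dim partners of their pairs, Tnc with the filter limit given above, and the part of dimness in these gaps was not tested.

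Among the lysyl oxidases Loxl2 fell by 0.98 ± 0.11 more than Lox and by 1.04 ± 0.10 more than Loxl3 (adjusted p = 5e-05 for both), and by 0.58 ± 0.10 more than Loxl1 (adjusted p = 0.00019; 0.13 with an adjusted p of 0.24 where all passing probes were averaged). With passing probes averaged, the gaps to Lox and Loxl3 were 0.53 (adjusted p = 0.0005) and 0.59 (adjusted p = 7.1e-05). In the scanner software's processed signals the gap to Lox was 0.94, and Loxl2 minus Loxl3 was at -0.66. Loxl1 fell by 0.40 ± 0.11 more than Lox (adjusted p = 0.0019) and by 0.46 ± 0.12 more than Loxl3 (adjusted p = 0.00019), the latter by only 0.06 in the scanner software's processed signals (adjusted p = 0.66). Lox and Loxl3 differed by -0.06 ± 0.13 (adjusted p = 0.67).

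Among the fibulins Efemp1 fell most, by 0.87 ± 0.17 more than Efemp2, 0.70 ± 0.10 more than Fbln1 and 0.25 ± 0.08 more than Fbln2 (adjusted p = 5e-05, 9.1e-05 and 0.0049). The last was 0.13 in the authors' normalised Cy5 values (adjusted p = 0.18). Fbln2 fell by 0.45 ± 0.11 more than Fbln1 (adjusted p = 0.0013), with values from -0.23 to 0.63 within slides. It fell by 0.63 ± 0.21 more than Efemp2 (adjusted p = 0.005). Taken as Fbln2 minus Efemp2, that value was smaller within slides, from -0.48 to -0.21. With slide as a block Fbln2 was at -0.80 and Efemp2 at -0.68. Fbln1 and Efemp2 differed by -0.18 ± 0.20 (adjusted p = 0.48). Dcn fell by 0.63 ± 0.16 more than Bgn (adjusted p = 0.00072), but the value, taken as Dcn minus Bgn, ran from -0.32 to 0.34 within slides and was -0.29 in the authors' normalised Cy5 values (adjusted p = 0.21). Lama2 and Lama4 differed by -0.27 ± 0.13 (adjusted p = 0.061), and the pair was called in 4 of 8 alternatives. It was at -0.42 in the processed signals (adjusted p = 0.003) and -0.39 with median centring (adjusted p = 0.021). With passing probes averaged it was at -0.29 (adjusted p = 0.022), and without the 6 arrays set aside for male tract transcripts at -0.30 (adjusted p = 0.029).

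**Figure D3:**
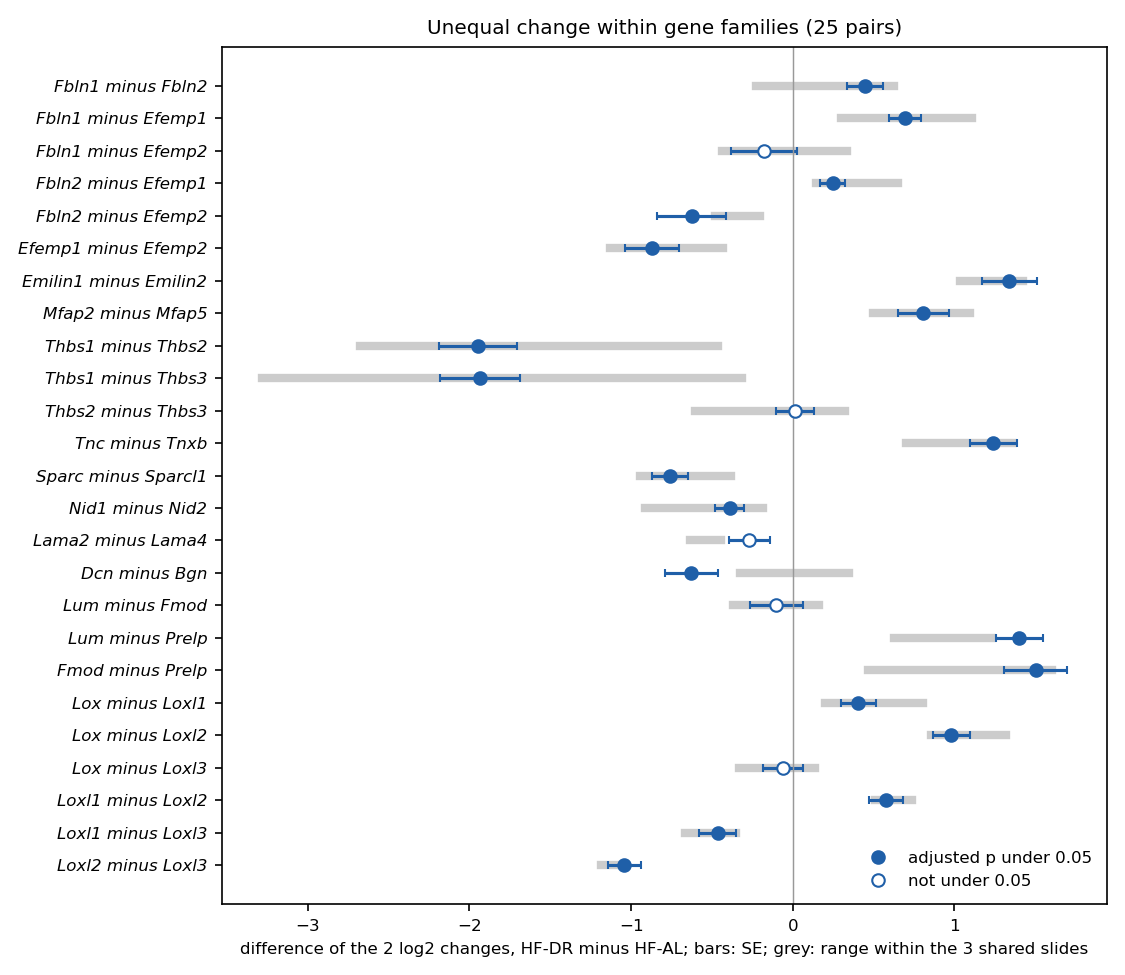
For 25 pairs of relatives, the difference between the first and the second gene's log2 change, HF-DR minus HF-AL (x axis; bars, SE; grey, range within the 3 slides holding both groups); a negative value means that the first gene fell more. Filled points have an adjusted permutation p under 0.05; Thbs1 against its relatives lies near -1.9, and Thbs2 against Thbs3 near 0.

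The probe chosen sets the size of a fall. Of the 14 members with several probes that passed the filter, the brightest probe showed the lowest difference in 12, and Fn1 and Lama4 were the exceptions. The 3 probes of Thbs1 gave -2.83, -1.35 and -0.97 from brightest to dimmest (mean log2 intensities of 10.4, 8.00 and 7.35). The 2 probes of Prelp gave -2.21 and -0.38 (intensities of 14.6 and 7.51), those of Fbn1 -2.07 and -1.42, and those of Tnxb -1.47 and -0.41. With all passing probes of a gene averaged, Thbs1 was at -1.71, Prelp at -1.30, Tnxb at -0.94 and Loxl2 at -0.94, and 36 members were still called lower. The 4 probes of Fn1 gave -1.16, -1.49, -0.52 and -0.37. Apart from Mfap2, the passing probes of a gene had the same sign.

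**Figure D4:**
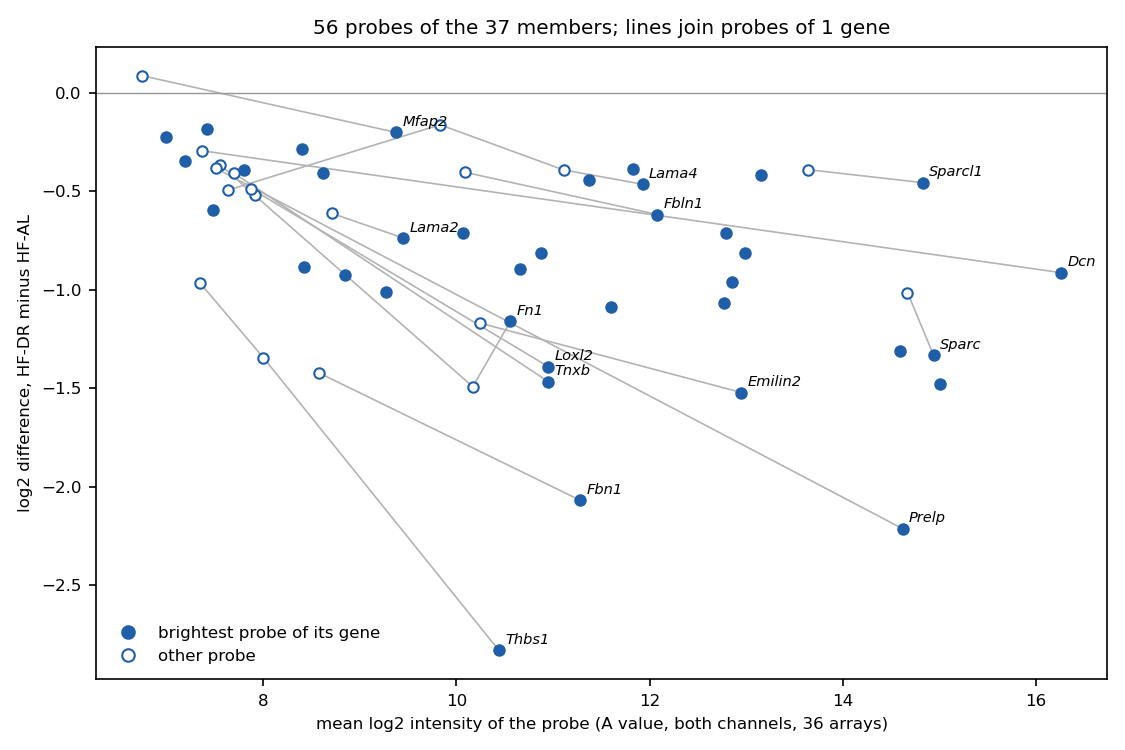
Log2 difference, HF-DR minus HF-AL (y axis), against mean log2 intensity (x axis) of the 56 passing probes of the 37 members; filled points are the brightest probe of a gene and lines join probes of 1 gene. Dim probes of Thbs1, Prelp, Tnxb and Loxl2 lie nearer 0 than their bright ones.

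After 12 weeks of unrestricted feeding no member passed the test against t=0 with its brightest probe. Between HF-AL and t=0, 0 of 37 members were called either way by limma, on a background of 0.697% of all genes called (0.23% lower and 0.467% higher). At an unadjusted p under 0.05, 9 members were lower and 2 (Dcn and Fmod) higher, where 5.61% of all genes were lower and 7.85% higher. The median over the members was -0.07 and over all genes 0.01. The smallest adjusted p belonged to Thbs2, which was 1.33-fold lower (-0.41 ± 0.12, adjusted p = 0.0886), followed by Postn (-0.35 ± 0.11, adjusted p = 0.107). Thbs1 had the largest difference, -0.49 ± 0.26 (adjusted p = 0.412), and Dcn the highest, 0.29 ± 0.12 (adjusted p = 0.285). With arrays scaled to equal spread, Thbs2 (-0.48, adjusted p = 0.0289) and Postn (-0.40, adjusted p = 0.0421) were called lower, and in the authors' normalised Cy5 values Lama2 was (-0.26, adjusted p = 0.0241). The dimmer passing probe of Lama2 was also lower (-0.22, adjusted p = 0.0292 over the passing probes), while its brightest was at -0.10 (adjusted p = 0.332).

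Against t=0 the restricted mice were low as well. Of the 37 members, 36 were called lower and 0 higher, also at an unadjusted p under 0.05, on a background of 33% of genes lower and 28.8% higher. Tnc, which passed the filter only through the ad libitum groups, is in this count and in those by slide below. It is no support for them. At least 2-fold lower were 17 members (2.56% of all genes), and 19 did not overlap between the groups (9.06% of all genes). This comparison shares its HF-DR animals with that against HF-AL, so its values stand beside that one and are no separate support. Thbs1 was 10.0-fold lower than at t=0 (-3.32 ± 0.26), Fbn1 4.79-fold (-2.26 ± 0.17) and Prelp 4.73-fold (-2.24 ± 0.15). Sparc was 3.12-fold lower, Loxl2 3.05-fold and Loxl1 2.20-fold. Mfap2 was at 0.04 ± 0.13 (adjusted p = 0.816). With slide as a block the count was again 36 (29.8% of all genes), and 34 of the 37 were below 0 on each of 6 shared slides, with Mfap2, Lamc1 and Loxl3 as exceptions. The share of all genes below 0 on each of these slides was not counted.

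Between animals of a group the members varied more than most genes. The median SD over members was 0.24 in t=0, 0.25 in HF-AL and 0.32 in HF-DR, against 0.13, 0.16 and 0.19 over all genes. HF-DR 8 gave the lowest HF-DR value for 21 members and HF-DR 9 for 7. Both are among the 6 arrays set aside for male tract transcripts, and their part in the SD was not tested. HF-DR 8 also had the lowest HF-DR mean of the mature adipocyte (-1.26), macrophage (-1.23), endothelial (-1.02) and fibroblast (-0.96) markers. It was not the lowest for the other cell lists. In t=0, array t=0 2 gave the highest value for 15 members, and in HF-AL, array HF-AL 10 did for 10.

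Genes that act with the members were read from 7 further lists. Beside their counts, 35.9% of all genes were called lower and 28.8% higher in HF-DR than in HF-AL, and 28.6% lower with slide as a block. The fibrillar collagens, the fibrils that decorin, lumican and the lysyl oxidases act on, were lower in HF-DR than in HF-AL for 9 of 9 genes (median -1.56). Col1a1 was 4.14-fold and Col3a1 4.28-fold lower. Of 15 genes for microfibril and elastic fibre partners, 10 were lower and 1 higher. The latent TGF-beta binding proteins split: Ltbp1 (-0.60 ± 0.07), Ltbp3 (-0.85 ± 0.06) and Ltbp4 (-0.74 ± 0.05) fell, and Ltbp2, which binds fibrillin but not latent TGF-beta, rose 2.32-fold (1.21 ± 0.12, adjusted p = 3.66e-11). Adamtsl4, a fibrillin-binding protein, fell by 0.78 ± 0.06.

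Of 28 other matricellular and soft matrix glycoproteins, 22 were lower and 1 higher. Srpx2 (-1.50 ± 0.10), the small collagen-binding protein dermatopontin, Dpt (-1.47 ± 0.11), Ecm1 (-1.37 ± 0.09) and Mxra8 (-1.03 ± 0.06) fell. Ccn5, a matricellular protein of the CCN family, rose 2.95-fold (1.56 ± 0.24, adjusted p = 5.72e-07). Of 12 other basement membrane genes, 9 were lower and 0 higher. They included Col18a1, the precursor of endostatin (3.60-fold, -1.85 ± 0.09), Col15a1 (2.55-fold), Pxdn, the peroxidase that crosslinks collagen IV (2.09-fold), and Lamb2 (1.75-fold).

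Of 15 genes for crosslinking and collagen maturation, 11 were lower and 0 higher. Bmp1, the protease that trims procollagen and activates lysyl oxidase, fell by 0.99 ± 0.07, and its enhancers Pcolce2 and Pcolce fell by 1.32 ± 0.13 and 0.76 ± 0.08. P4ha2, a prolyl hydroxylase, fell by 0.76 ± 0.08. Of 20 other proteoglycan and hyaluronan genes, 10 were lower and 2 higher (7 and 2 with slide as a block, where 28.6% of all genes were lower). The hyaluronan synthase Has2 was 2.23-fold and the glypican Gpc1 2.17-fold lower, and Cspg4, the NG2 proteoglycan of pericytes, was 2.38-fold higher (1.25 ± 0.12). Of 21 matrix receptors, 14 were lower and 1 higher. Ddr2, a collagen receptor kinase, was 2.43-fold lower, the hyaluronan receptor Cd44 1.81-fold, Itgb5 1.50-fold and Itgav 1.47-fold, while the laminin-binding integrin Itga3 was 1.20-fold higher (adjusted p = 0.00175; 0.0686 with slide as a block).

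Between HF-AL and t=0, 3 genes of these 7 lists were called, beside 0.697% of all genes. Itgb8 was 1.21-fold higher (adjusted p = 0.0485), and Col5a2 (1.27-fold, adjusted p = 0.0391) and Col5a3 (1.32-fold, adjusted p = 0.0407) were lower. None of these 3 was called with slide as a block (adjusted p of 0.0988, 0.158 and 0.111). Pxdn was then called lower instead (-0.33, adjusted p = 0.0152; -0.34 with an adjusted p of 0.076 without the block), and is named here after its value was seen.

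**Figure D5:**
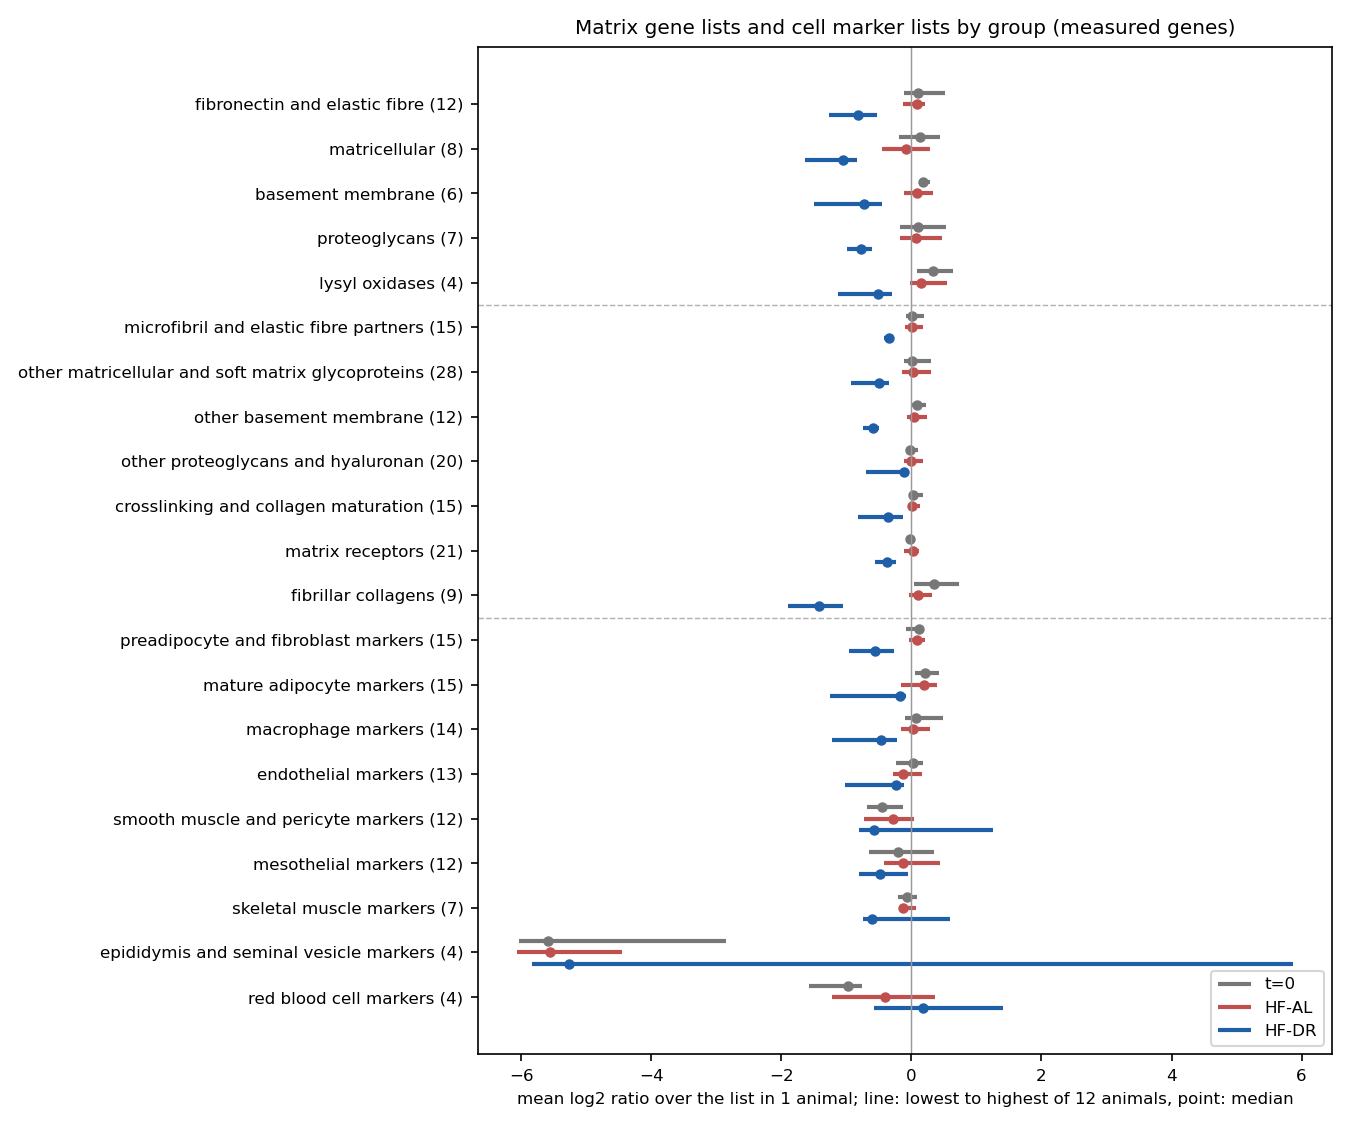
Mean log2 ratio over each list in 1 animal (x axis): lines run from the lowest to the highest of 12 animals of a group and points are medians; numbers in brackets are measured genes. The top block holds the 5 member lists, the middle block the 7 lists of genes that act with them and the bottom block 9 lists of cell markers. HF-DR lies left of the other groups without overlap in all 5 member lists. The same holds in the middle block for all lists but other proteoglycans and hyaluronan, and for the fibroblast and macrophage markers.

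Most fibroblast and macrophage markers were lower in HF-DR, with and without slide as a block. The other cell lists ranged from mostly lower to all higher. Over all genes, 35.9% were called lower and 28.8% higher than in HF-AL, and 28.6% lower with slide as a block. Of 15 preadipocyte and fibroblast markers, 13 were lower in HF-DR than in HF-AL and 0 higher (median -0.62). The 15 include Dlk1, well above background on 8 of 12 HF-DR arrays. Like Tnc, it passed the filter only through the ad libitum groups and is no support. Their mean ran from -0.09 to 0.20 in t=0, from -0.03 to 0.21 in HF-AL and from -0.96 to -0.28 in HF-DR. Pdgfra, the receptor that defines adipose fibroblasts, was 1.76-fold lower, Cd248 2.02-fold and Cd34 1.92-fold. Of 14 macrophage markers, 11 were lower and 1 higher, with means from -0.10 to 0.49 in t=0, from -0.16 to 0.29 in HF-AL and from -1.23 to -0.22 in HF-DR. Of 15 mature adipocyte markers, 9 were lower and 1 higher, and their means ran from 0.05 to 0.43, from -0.16 to 0.40 and from -1.26 to -0.08. With slide as a block, 6 adipocyte markers were lower and 4 higher, and their median moved from -0.54 to -0.23. The part of any of these in the members' fall was not tested.

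Of 13 endothelial markers, 7 were lower (4 with slide as a block) and 2 higher, with means from -0.23 to 0.17 in t=0, from -0.29 to 0.16 in HF-AL and from -1.02 to -0.11 in HF-DR. Mesothelial markers were lower for 8 of 12 (4 with slide as a block) and higher for none (means from -0.66 to 0.35, from -0.42 to 0.44 and from -0.80 to -0.05). Smooth muscle and pericyte markers were lower for 3 and higher for 3 of 12, with HF-DR means from -0.81 to 1.25 (HF-DR 9, one of the arrays set aside above). With slide as a block 4 of them were lower and 2 higher, and their median moved from 0.21 to -0.27. Of 7 skeletal muscle markers, 3 were lower, and Ckm, Myh4 and Tnnt3 did not pass the filter. Red blood cell markers were higher for 4 of 4 (HF-DR means from -0.58 to 1.41, HF-AL from -1.21 to 0.37), and 0 of 4 with slide as a block.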

How the data were processed

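The authors deposited 36 scans of 2-colour Agilent mouse arrays, whose scanner software, per the submitters' processing notes, was Agilent Feature Extraction 9.5.3.1. Per the labels, 500 ng of RNA of each mouse was labelled in both dyes, and an equimolar mix of the Cy3 products was the reference. Intensity values used here are the mean spot signal and median local background of each channel, deposited as raw linear values. The authors also deposited log2 values of 22510 probes; per array they follow log2 Cy5 (r of at least 0.980) and not the ratio (r of at most 0.209), with medians from 9.26 to 9.29, and the sources used here do not give how they were made. They served as an alternative. All arrays have 1 dye orientation. Probe coordinates are on mm8 per the file headers.

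Background was corrected with normexp (offset 50), fitted without 84 specks (spots with a net signal under -50), followed by loess within arrays. Spots marked as non-uniform or outliers were left out, saturated spots kept, and spots of a probe averaged. The filter on dim probes asked for Cy5 well above background on 9 or more arrays in any group, which 24706 of 41174 probes met. Members were named by the symbol in the files, and other probes through the RefSeq table. The groups were compared in 1 fit with limma 3.58.1 in R 4.3.3, two-sided, with Benjamini-Hochberg adjustment; the number of arrays limits the precision. The fit was tested on simulated data for HF-DR against HF-AL with 16497 genes: it recovered 25 of 50 genes changed by 0.25 (log2), 42 of 50 by 0.5, 47 of 50 by 1 and 50 of 50 by 2, with 10 false calls. Only these genes were changed, and the noise was drawn for each gene alone, without slide effects. In the data 10681 genes were called in this comparison, so the simulated rates do not carry over to it.

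The members, the lists and the family pairs were chosen with earlier results of these data known. All members may be named. Of each other matrix list up to 4 called genes with the smallest adjusted p in the direction most called genes took and 1 in the other direction are named, and of each cell list up to 3. Dlk1 is named besides these for its filter limit only. Values of every animal are ranged for the 2 members of each list with the largest difference, and Mfap2, Mfap4 and the dim members were added after their values were seen. Promoters and motifs were also chosen after the values were seen.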

Additional observations from a re-analysis of the deposited data

How the results depend on the processing

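Over 14 alternatives, between 33 and 36 of the 37 members were called lower in HF-DR than in HF-AL, and 35 or 36 than at t=0; none was called higher. Counts of members in this section include Tnc where it was called, and its filter limit holds for each of them. Calls lost beside those given in the report were Tnc against HF-AL (adjusted p = 0.0563) and Sparcl1 against t=0 (adjusted p = 0.0710), both in the authors' deposited log2 values. Between HF-AL and t=0, the members called lower were 1 in those values and 2 with scaling between arrays, against 0. All genes called there numbered 115, and 211 with Feature Extraction's processed signals, 69 with median centring and no loess, 532 with scaling, 71 without the filter on dim probes, 305 with only those arrays in the fit and 245 without the 6 arrays set aside for male tract transcripts. The cause was not tested. No called value changed sign. Of the 20 family pairs called, 15 kept the call in all 8 alternatives run for them (chosen after seeing the data). Tnc minus Tnxb, with the filter limit of Tnc, is among the 15. Dcn minus Bgn, Fbln2 minus Efemp1, Nid1 minus Nid2, Loxl1 minus Loxl2 and Loxl1 minus Loxl3 lost the call in at least 1. Lama2 minus Lama4 gained it in 4. Slide as a random block, also added after seeing the data, left 36 members called.

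Replicate numbers did not pair the mice: over 36 pairs of arrays with the same number the correlation of deviations ran from -0.46 to 0.40 (median 0.01), 11 were over 0.1, and 3 of 36 arrays correlated best with their own number. With the replicate block, 36 members were called lower against HF-AL, 36 against t=0 and 0 between HF-AL and t=0, with 10681, 10236 and 133 of all genes called. With 12 animals a group, single animals were not left out in turn; HF-DR 5, with the lowest share of probes well above background, was, and 36 members were still called lower.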
